A study of Mus musculus with 36 samples.

Results

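The DNA replication and S phase genes described here were 42 genes chosen by symbol from textbook knowledge of the replication fork, out of 24411 genes with a value in the tables. Membership was set by symbol and used no measured value, although earlier results of these data were known when the symbols were picked. All 42 were present and passed the filter on low values in every fit. They were sorted by role into 5 genes of origin recognition and licensing, 10 of the replicative helicase, 8 polymerase and primase subunits, 6 of the sliding clamp and its loader, 4 of the lagging strand and single-strand binding, 4 of nucleotide supply and uracil removal, 4 of chromatin and histone supply, and the transcription factor E2f1.

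The study asked how loss of Taf1, the largest subunit of the general transcription factor TFIID, changes the maturation of mouse haematopoietic stem and progenitor cells from bone marrow. Cells labelled WT and named Control, or Taf1 KO from a conditional knockout mouse, were sampled at day 0 and after 3 days of expansion in SCF and IL-3. One set of cultures was then driven towards macrophages, first by GM-CSF plus M-CSF and after day 5 by M-CSF on its own. The other was driven towards granulocytes by G-CSF added to SCF and IL-3, and after day 5 by G-CSF on its own. Both were sampled at day 5 and day 7, each cytokine was used at 50 ng/ml, and the serum was from horse. This gave 6 stages, 2 genotypes and 12 groups of 3 RNA-seq libraries, 36 libraries in all. The labels name no Cre driver, no deleted exon, no age and no strain, and they do not say whether the libraries of a group came from separate mice, so a p-value measures only the spread between these libraries, which may be technical.

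Before a cell copies its DNA, the origin recognition complex, Cdc6 and Cdt1 load the ring of Mcm proteins onto origins in G1, and geminin (Gmnn) blocks Cdt1 once S phase has begun. Cdc45 and the GINS complex join the ring to form the moving helicase, and polymerase alpha with primase, polymerase delta and polymerase epsilon copy the strands while the clamp Pcna, loaded by replication factor C, keeps the polymerases in place. Many of these genes are transcribed under the control of E2F factors as cells enter S phase, and myeloid progenitors divide several times before they mature and leave the cell cycle.

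Replicate libraries correlated at r between 0.973 and 0.997 over all genes, and 10289 to 11226 genes reached 1 TPM per library. Taf1 itself stood at 13.6 to 14.5 TPM in control and 8.50 to 9.06 TPM in knockout libraries at day 0, and at 12.6 to 13.8 against 5.94 to 6.23 TPM at day 5 of the macrophage course. At day 3 the genotypes overlapped for Taf1, with 9.62 to 11.5 TPM in control and 8.66 to 10.3 TPM in knockout libraries, so Taf1 does not check the labels of that day. Some libraries stood apart from their group. Control library 1 at day 3 had the lowest summed level of the 42 genes, and control library 1 at day 5 held less S100a8 and S100a9, the abundant granule messages of neutrophils, than the other 2 control libraries of its day (49290 against 144500 and 141600 TPM in the macrophage course, 54930 against 139100 and 144300 TPM in the granulocyte course). Knockout library 1 at day 7 held more of the noncoding RNAs Rpph1 and Rmrp than the other 2 (94910 against 41360 and 46620 TPM in macrophage, 70030 against 22920 and 23350 TPM in granulocyte cultures) and, in granulocyte cultures, more histone message (66110 against 36320 and 39030 TPM).

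Promoter sequence was looked up because many of the genes moved together at day 3 while a few did not. RefSeq promoters of GRCm38.p6, from 250 bases before to 50 bases after each start, were matched for 35 of the 42 genes and gave 41 promoters. The letters TTTGGCGC, TTTCGCGC, TTTCCCGC or TTTGCCGC, forms of the E2F site, were found on either strand in 13 of the 41 promoters (31.7%), against 744 of all 32851 promoters (2.26%). CCAAT, the letters bound by NF-Y, stood on either strand in 24 of 41 (58.5%) against 37.4% of all promoters. The letters TATAAA, counted anywhere in the window on either strand, stood in 3 of 41 (7.32%) against 13.6%. All 3 lay on the strand opposite the gene, 177 (Cdc45), 224 (Fen1) and 102 (Pold2) bases before a start. Of the matched genes that were higher in the knockout at day 3, 11 of 30 held the E2F letters. So did Cdt1, which was lower, and 1 of the 4 that did not pass, Pole2. So few matched genes did not rise that a link between the letters and the call cannot be judged. The stretches just before the start are printed 5′ to 3′ on the strand of the gene, with matches to the E2F letters or to CCAAT, on either strand, in capitals. Fen1, Orc1 and Uhrf1 are shown as the 3 largest rises at day 3, Mcm5 and Mcm6 as examples picked because they hold E2F letters, and Cdt1, Pole2 and Pold2 as genes that did not rise. They are Fen1 at chr19:10204394-10204543 (minus strand), Orc1 at chr4:108579304-108579453 (plus), Uhrf1 at chr17:56303187-56303336 (plus), Mcm5 at chr8:75109339-75109508 (plus), Mcm6 at chr1:128359706-128359855 (minus), Cdt1 at chr8:122567865-122568014 (plus), Pole2 at chr12:69228191-69228340 (minus) and Pold2 at chr11:5878257-5878406 (minus). For Fen1, Uhrf1 and Pold2 it is the first listed of 2 starts.
Fen1: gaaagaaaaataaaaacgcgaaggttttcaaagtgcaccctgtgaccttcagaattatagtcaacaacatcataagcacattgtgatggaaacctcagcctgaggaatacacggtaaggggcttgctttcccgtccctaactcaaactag
Orc1: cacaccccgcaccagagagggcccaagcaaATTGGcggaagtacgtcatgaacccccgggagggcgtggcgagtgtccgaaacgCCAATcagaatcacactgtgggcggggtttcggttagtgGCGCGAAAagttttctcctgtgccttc
Uhrf1: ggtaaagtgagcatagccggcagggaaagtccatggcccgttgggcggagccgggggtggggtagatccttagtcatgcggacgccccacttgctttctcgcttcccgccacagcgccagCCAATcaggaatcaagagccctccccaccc
Mcm5: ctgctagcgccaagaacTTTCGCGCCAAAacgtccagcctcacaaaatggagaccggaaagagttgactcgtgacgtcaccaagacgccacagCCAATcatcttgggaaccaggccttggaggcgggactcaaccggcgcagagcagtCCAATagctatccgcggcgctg
Mcm6: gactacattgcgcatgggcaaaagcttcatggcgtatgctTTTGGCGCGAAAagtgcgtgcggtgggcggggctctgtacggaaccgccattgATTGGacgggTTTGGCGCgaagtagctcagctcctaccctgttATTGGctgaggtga
Cdt1: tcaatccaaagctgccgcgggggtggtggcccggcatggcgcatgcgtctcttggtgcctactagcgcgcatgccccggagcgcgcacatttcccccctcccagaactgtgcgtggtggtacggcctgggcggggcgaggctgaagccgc
Pole2: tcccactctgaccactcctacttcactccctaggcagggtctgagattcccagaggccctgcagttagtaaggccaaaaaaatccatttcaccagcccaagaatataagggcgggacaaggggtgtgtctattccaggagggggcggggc
Pold2: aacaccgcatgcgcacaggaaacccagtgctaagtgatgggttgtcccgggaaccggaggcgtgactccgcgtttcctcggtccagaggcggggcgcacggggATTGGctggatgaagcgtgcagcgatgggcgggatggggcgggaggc
The E2F letters of Cdt1 and Pole2 lie after the start, from base 33 and base 11, and those of Uhrf1 185 bases before its other start, all outside the printed stretches. These matches describe letters in a window and show no binding.

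The summed level of the 42 genes was highest before culture and moved with stage more than with genotype. Control libraries summed to 4266, 4790 and 4011 TPM at day 0, where the knockout gave 4453, 4100 and 4670 TPM. At day 3 the sums were 1565, 2214 and 2303 TPM in control but 3008, 3415 and 3256 TPM in the knockout, so every knockout library lay above every control library. At day 5 the order was the other way round in both courses, with 2490 to 2705 TPM in control and 2184 to 2221 TPM in knockout libraries on the way to macrophages, and 2752 to 2776 against 2449 to 2527 TPM on the way to granulocytes. At day 7 the genotypes overlapped in both courses, at 2782 to 3103 and 2740 to 2802 TPM for macrophages and 1898 to 2098 and 1773 to 1997 TPM for granulocytes. In bulk libraries such as these, fewer dividing cells and less RNA of these genes per cell cannot be told apart.

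**Figure D1:**
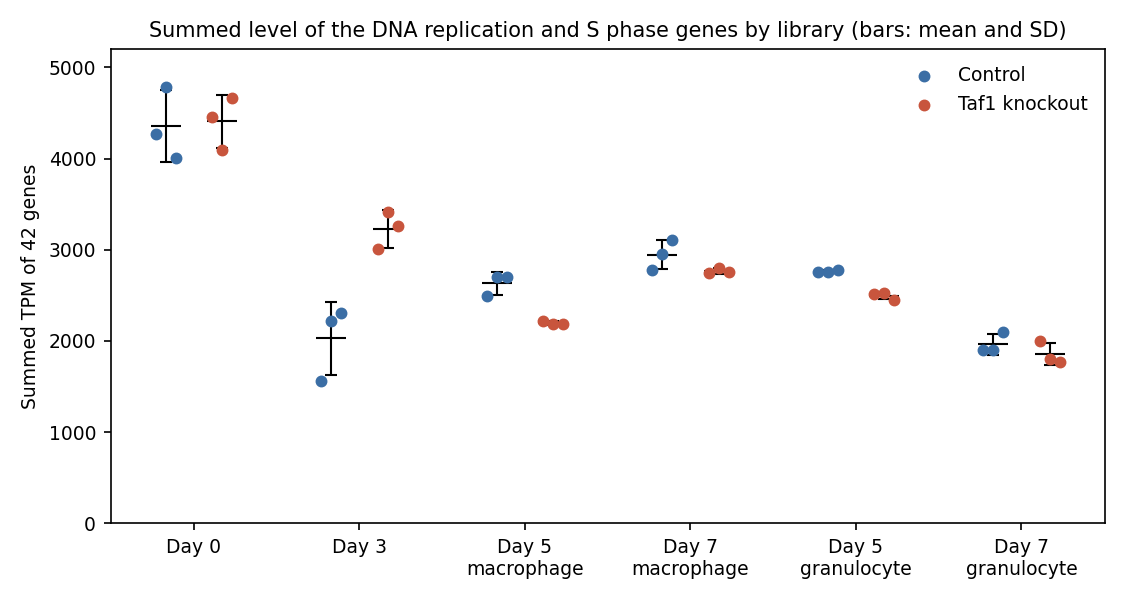
Summed TPM of the 42 DNA replication and S phase genes (vertical axis, from 0) in each library (points) of the 6 stages (horizontal axis), control in blue and Taf1 knockout in red, with the mean and SD of 3 libraries as bars. The 3 knockout libraries at day 3 lie between 3008 and 3415 TPM, above the control libraries at 1565 to 2303 TPM.

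Within the list, Pcna, the sliding clamp, had the highest mean level in all 12 groups, from 270.2 TPM in control cells at day 3 to 757.4 TPM in control macrophage cultures at day 7. E2f1, Orc1, which is the largest subunit of the origin recognition complex, or Ung, the uracil-DNA glycosylase, had the lowest. The group with the highest mean was knockout day 0 for 22 genes, control day 0 for 16, control macrophages at day 7 for 3 and control granulocyte cultures at day 5 for 1. The group with the lowest mean was knockout granulocyte cultures at day 7 for 21 genes, control granulocyte cultures at day 7 for 14, control day 3 for 6 and control macrophage cultures at day 5 for 1. As a description over the 12 group means, which share libraries with every comparison below, the median correlation of a gene with the mean of the other 41 was 0.929. The least alike were Rrm2, the regulated subunit of ribonucleotide reductase (r = 0.177), E2f1 (r = 0.511), Pcna (r = 0.534) and Cdc45 (r = 0.621), and the most alike was Mcm4, a helicase ring subunit (r = 0.986).

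In control cells the replication genes fell during the first 3 days of culture. Of the 42 genes, 0 were higher and 40 lower at day 3 than at day 0 (limma, adjusted p under 0.05), or 95.2%, beside 73% of the 11953 genes tested in either direction and 39.6% of them lower. The median change was -1.06 on the log2(TPM + 1) scale. The flap endonuclease Fen1, which trims Okazaki fragments, went from 156, 179.5 and 152 TPM to 24.6, 42.9 and 41.3 TPM (log2 change -2.17, SE 0.19, adjusted p 2.23e-09). Ung fell by 2.14 ± 0.16 (log2 change ± SE), Orc1 by 1.75 ± 0.18 and the helicase ring subunit Mcm7 by 1.73 ± 0.13, with no overlap of libraries in any of these. Rrm2 and Cdc45 did not pass, at -0.16 and -0.04.

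After day 3 some of the genes rose in the control cultures of each course. From day 3 to day 5, 23 of 42 genes rose and 0 fell in macrophage cultures (background 50.3%), and 24 rose and 0 fell in granulocyte cultures (background 44.3%). Those 2 comparisons share the day 3 libraries, and with only the compared groups in the fit 12 and 14 genes passed. Fen1 rose by 1.22 ± 0.19 on the way to macrophages and by 1.19 ± 0.19 on the way to granulocytes, Orc1 by 0.88 ± 0.18 and 1.09 ± 0.16, and Rrm2 by 0.87 ± 0.14 on the way to macrophages, from 93.9 to 170.5 TPM on average. From day 5 to day 7 the granulocyte cultures lost 38 of the 42 (0 higher, background 38%), with the origin subunit Orc6 at 54.4, 38.6 and 42.9 TPM on day 5 and 23.5, 24.2 and 25.5 TPM on day 7 (-0.85 ± 0.15, adjusted p 0.000155). Over the same days the macrophage cultures changed in 5 of 42 (background 39.1%). Pcna rose there by 0.89 ± 0.11, from 409, 408 and 403 TPM to 686, 727 and 859 TPM, as did the GINS subunit Gins2 and Gmnn, while Cdc45 fell by 0.73 ± 0.12 and Rrm2 by 0.59 ± 0.14. That split of 3 up and 2 down became 3 up and 5 down with either other scaling.

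At day 7 most of the genes were higher in macrophage than in granulocyte cultures of both genotypes. In control cells 38 of 42 were higher and 0 lower (background 46.7%, or 36.3% higher), with a median difference of 0.487 against 0.209 over all genes. In knockout cells 36 were higher and 0 lower (background 53%, or 37.5% higher), with a median of 0.49 against 0.183. With median-of-ratios scaling 24 were up and 0 down in control, and 23 up and 1 down in knockout cells. Mcm7, Cdc45 and Rfc2 did not pass in either genotype. Pcna stood at 686, 727 and 859 TPM in control macrophages against 353, 371 and 479 TPM in control granulocyte cultures (0.92 ± 0.12), and at 655, 757 and 714 TPM against 331, 349 and 328 TPM in the knockout (1.07 ± 0.12). Gins2 differed by 0.97 ± 0.13 in control and 1.12 ± 0.13 in knockout cells. The difference of the course difference between genotypes passed for 0 of 42 genes in limma, beside 3.26% of all genes, with 2 genes at an unadjusted p under 0.05 and the lowest adjusted p at 0.275, for Ung (-0.53 ± 0.23).

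At day 0, before any culture, few of the genes differed between genotypes. Of the 42, 2 were higher and 3 lower in the knockout, or 11.9%, beside 23.3% of all genes tested (13.1% higher, 10.2% lower). The GINS subunit Gins1 stood at 52.6, 58.7 and 47.7 TPM in control and 33.3, 31.8 and 32.0 TPM in knockout libraries (-0.69 ± 0.10, adjusted p 5.2e-05). Pold2, the small subunit of polymerase delta, stood at 75.6, 103 and 85.4 TPM against 64.5, 48.1 and 63.2 TPM (-0.58 ± 0.13, adjusted p 0.00359). For both genes every knockout library was below every control library. Cdt1 fell by 0.35 ± 0.11, while Rfc4, a clamp loader subunit, rose by 0.47 ± 0.14 and Pole, the catalytic subunit of polymerase epsilon, by 0.43 ± 0.11, from 35.0, 34.1 and 32.2 TPM to 47.3, 45.0 and 45.0 TPM. Without knockout library 1, 3 genes passed, and neither Cdt1 nor Rfc4 did. Their calls also ended without control library 3, and Cdt1's without control or knockout library 2 and Rfc4's without knockout library 3. The split was 2 up and 6 down with median-of-ratios scaling, and 9 up and 3 down with the most abundant transcripts left out.

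At day 3 the replication genes were broadly higher in the knockout. Of the 42, 36 were higher and 2 lower, or 90.5%, beside 53.2% of all genes (26.5% higher, 26.7% lower), and the median difference was 0.71 against -0.00945 over all genes. The libraries of the genotypes did not overlap for 34 genes that were higher and 1 that was lower. No share of all genes apart in this way was computed. The split was 34 up and 2 down with median-of-ratios scaling, and 33 genes passed without control library 1, the control library with the lowest levels. Those no longer passing without it were Gmnn, Mcm10, Orc6, Pold1 and Prim2, and the first 4 also did not pass without knockout library 2 or 3.

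**Figure D2:**
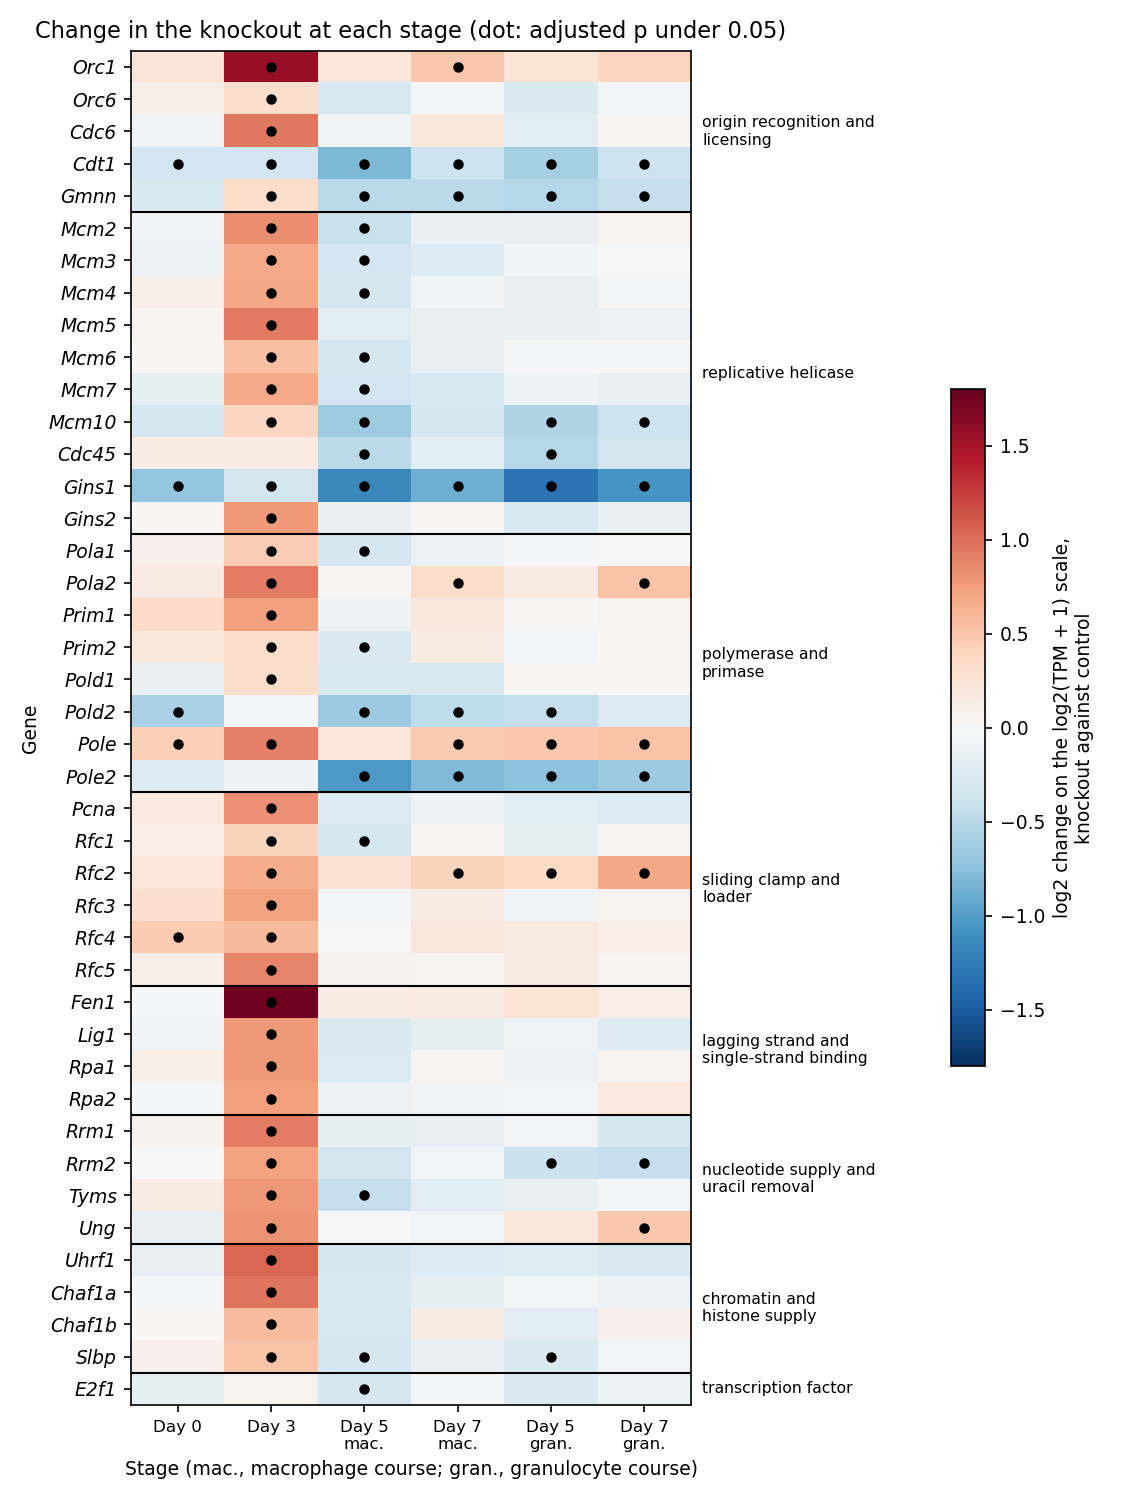
log2 change (colour, red higher and blue lower in the knockout) of the 42 genes (rows, grouped by role) at the 6 stages (columns), with a dot where the adjusted p was under 0.05. Day 3 is the column with 36 genes higher, and Gins1 and Cdt1 are the rows with a dot and a lower level at every stage.

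Among the origin and licensing genes, 4 of 5 rose at day 3 and 1 fell. Orc1 stood at 1.77, 3.27 and 3.42 TPM in control and 9.72, 11.03 and 9.44 TPM in knockout libraries (1.56 ± 0.18, adjusted p 9.34e-07). Cdc6, the loading factor, went from 8.22, 13.0 and 13.4 TPM to 21.1, 24.4 and 22.8 TPM (0.95 ± 0.13, adjusted p 7.47e-06). Both were higher in every knockout library. Cdt1 went the other way, with 44.6, 56.1 and 56.6 TPM in control and 37.4, 44.4 and 41.1 TPM in knockout libraries (-0.34 ± 0.11, adjusted p 0.01), a gap so narrow that without control library 3 the adjusted p was 0.0515 and without knockout library 1 it was 0.0531.

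Of the 10 helicase genes, 8 rose, Gins1 fell and Cdc45 did not pass. Mcm5, a ring subunit, stood at 56.7, 85.6 and 86.0 TPM in control and 134, 149.5 and 147 TPM in knockout libraries (0.93 ± 0.13, adjusted p 5.18e-06). Mcm2, another ring subunit, rose by 0.83 ± 0.10, from 47.0, 60.6 and 61.6 TPM to 91.8, 106 and 105 TPM. The whole Mcm2 to Mcm7 ring moved one way, the others by 0.54 (Mcm6) to 0.70 (Mcm4), and Gins2 by 0.76. Gins1 had 17.2 ± 0.78 TPM (SD, n = 3) in the knockout against 22.04 ± 4.11 TPM in control (-0.32 ± 0.10), with overlapping libraries, and the call was lost without control library 3 (adjusted p 0.0929). Cdc45 differed by 0.15 ± 0.12.

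Of the 8 polymerase and primase genes, 6 rose. Pola2, the accessory subunit of polymerase alpha, went from 16.8, 20.6 and 21.3 TPM to 36.2, 38.1 and 38.7 TPM (0.92 ± 0.09, adjusted p 8.78e-08), and Pole from 11.1, 14.5 and 16.1 TPM to 23.5, 28.9 and 28.2 TPM (0.91 ± 0.11, adjusted p 1.93e-06). No library overlapped for these genes. The 2 that did not pass were the small subunits of the leading and lagging strand polymerases, Pole2 at -0.10 ± 0.14 and Pold2 at -0.02 ± 0.13, so the catalytic and small subunits of polymerase epsilon moved unequally.

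All 6 clamp and loader genes, all 4 lagging strand genes, all 4 of nucleotide supply and uracil removal and all 4 of chromatin and histone supply rose at day 3. Fen1 showed the widest gap, from 24.6, 42.9 and 41.3 TPM to 108, 129.6 and 128 TPM (1.76 ± 0.19, adjusted p 2.85e-07). Lig1, the ligase that joins Okazaki fragments, rose by 0.77 ± 0.12. Pcna went from 221, 285 and 305 TPM to 446, 505 and 475 TPM (0.82 ± 0.11, adjusted p 3.93e-06) and the loader subunit Rfc5 from 26.3, 43.1 and 43.2 TPM to 64.4, 73.3 and 66.8 TPM (0.88 ± 0.13). In each of these genes the lowest knockout library was above the highest control library. The large ribonucleotide reductase subunit Rrm1 rose by 0.93 ± 0.13 and Ung by 0.81 ± 0.16. Uhrf1, which carries DNA methylation through replication, rose by 1.04 ± 0.16 and the chromatin assembly subunit Chaf1a by 0.96 ± 0.13. E2f1 itself was at 6.22, 8.36 and 7.99 TPM in control and 7.91, 8.09 and 7.53 TPM in knockout libraries, a difference of 0.06 ± 0.12 that did not pass.

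Other cell-type markers moved at the same stage. At day 3, 9 of 10 macrophage markers were lower in the knockout (summed level 714.1 to 1000 TPM in control, 179.7 to 298.7 TPM in knockout libraries), as were 8 of 8 megakaryocyte markers (1391 to 2404 against 284.4 to 625.4 TPM) and 4 of the 4 eosinophil markers tested (1843 to 2824 against 542.1 to 612.2 TPM). Granulocyte markers were summed at 76090 to 91110 TPM in control and 130300 to 144400 TPM in knockout libraries, with 1 of 11 higher and 1 lower. Most of those sums was S100a8 and S100a9, at 65800 to 79550 TPM in control and 121500 to 135100 TPM in knockout libraries. Of the progenitor markers 1 of 8 was higher and 1 lower. Of 7 erythroid markers 5 were lower (21.3 to 45.2 against 8.12 to 8.88 TPM). Mast cell and basophil markers were summed at 1319 to 1787 against 1066 to 1228 TPM, with 1 of 6 higher and 3 lower, and lymphoid markers at 22.4 to 25.6 against 10.7 to 11.7 TPM, with 1 of the 2 tested lower and, in each genotype, 3 of 7 at 0 in all its day 3 libraries. No marker of the macrophage, megakaryocyte, eosinophil and granulocyte lists was at 0 in every library of a day 3 group, and their part in the replication gene result was not tested.

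**Figure D3:**
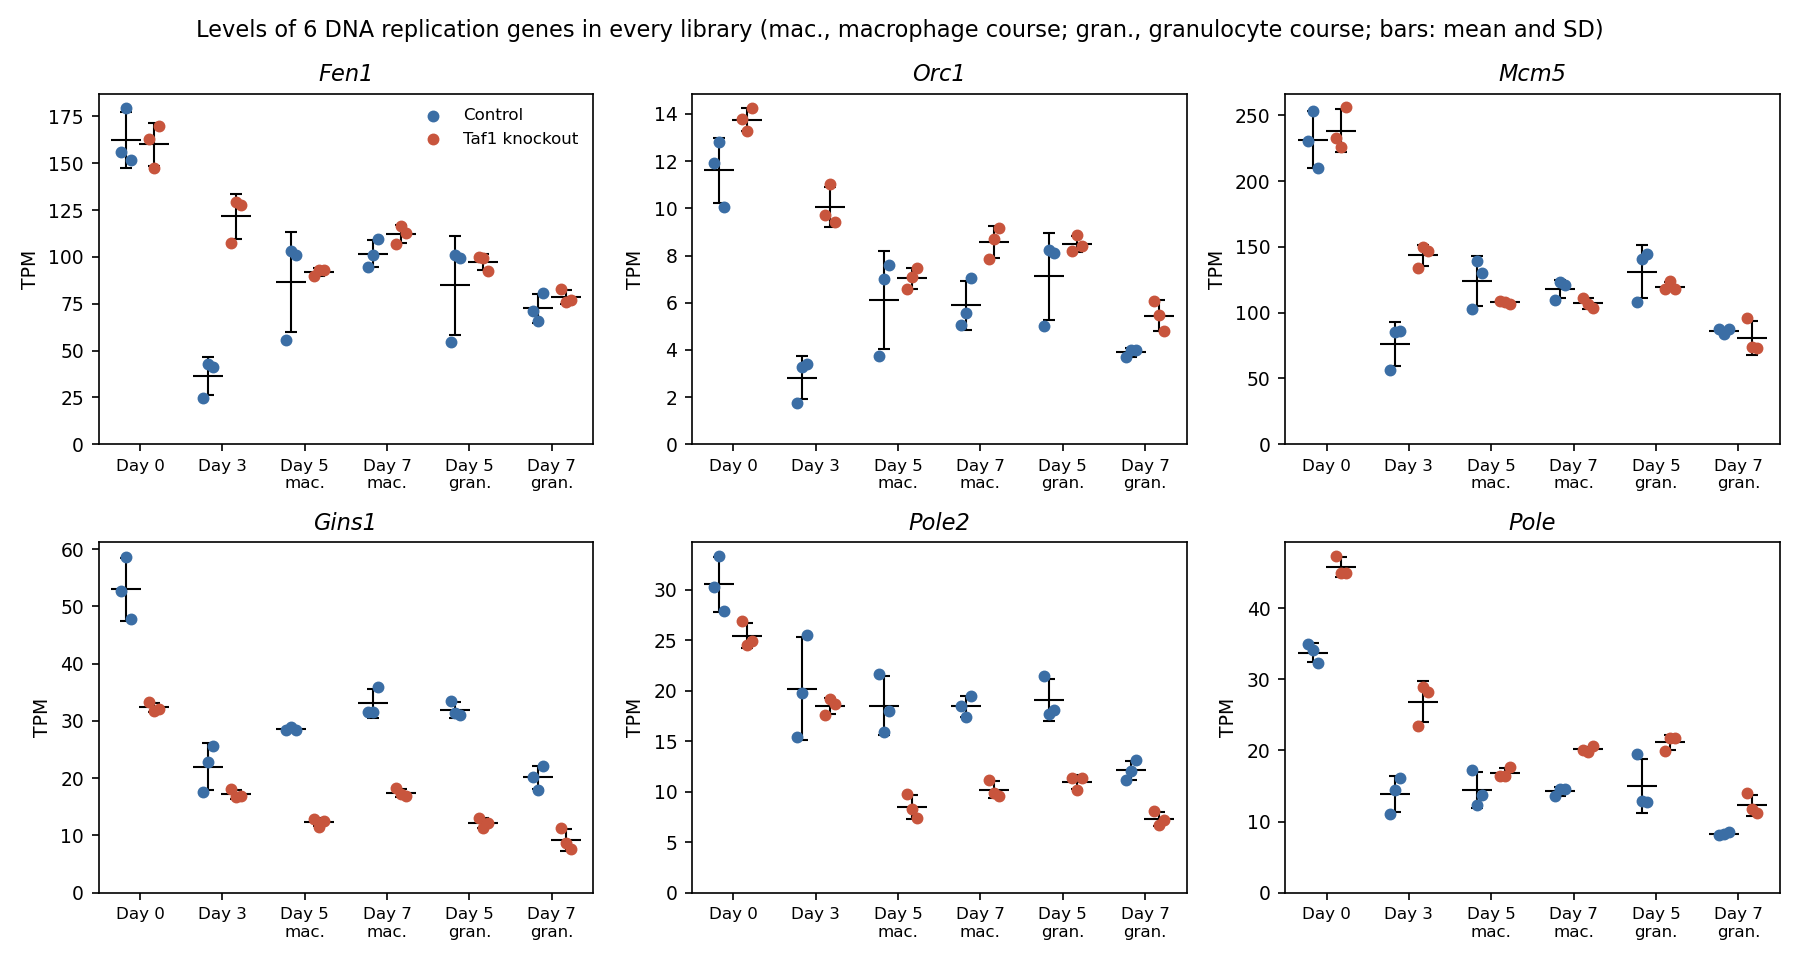
TPM (vertical axes, from 0) of Fen1, Orc1, Mcm5, Gins1, Pole2 and Pole in each library (points) of the 6 stages, control in blue and Taf1 knockout in red, with the mean and SD of 3 libraries. Fen1, Orc1 and Mcm5 part the genotypes most at day 3, whereas Gins1 is lower in the knockout at all 6 stages and Pole is higher at 5 of 6 stages by test.

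At day 5 of the macrophage course the sign was the reverse of day 3, but at about the background rate. Of the 42, 0 were higher and 18 lower in the knockout, or 42.9%, beside 43% of all genes (5.11% higher, 37.9% lower), and the median was -0.282 against -0.228 over all genes. Median-of-ratios scaling moved the median of all genes to -0.0398 and the split to 4 up and 8 down, and leaving out the most abundant transcripts gave 3 up and 8 down. The ring subunits Mcm2, Mcm3, Mcm4, Mcm6 and Mcm7 passed at -0.31 to -0.40 in TPM as deposited and did not pass with either of these scalings. Summed S100a8 and S100a9 made up 11.2% of the TPM in control and 21.5% in knockout libraries at this stage, and their part in the shift was not tested. Without knockout library 3, 11 genes passed.

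A smaller set fell well below that shift at day 5. Gins1 stood at 28.4, 28.9 and 28.4 TPM in control and 12.9, 11.5 and 12.5 TPM in knockout macrophage cultures (-1.15 ± 0.10, adjusted p 7.19e-08). Pole2 went from 21.7, 16.0 and 18.0 TPM to 9.76, 8.34 and 7.37 TPM (-1.04 ± 0.14, adjusted p 7.69e-06) and Cdt1 from 54.4, 42.2 and 45.3 TPM to 28.3, 24.1 and 27.2 TPM (-0.81 ± 0.11, adjusted p 8.01e-06). Every knockout library was below every control library for all of these. Pold2 fell by 0.65 ± 0.13, Mcm10, listed with the replicative helicase, by 0.64 ± 0.14, Gmnn by 0.49 ± 0.12 and Tyms, which makes thymidylate, by 0.42 ± 0.10. Weaker calls were the large clamp loader subunit Rfc1 (-0.31), the histone message binding protein Slbp (-0.30), E2f1 (-0.30, adjusted p 0.0481, with overlapping libraries) and the primase subunit Prim2 (-0.26, adjusted p 0.0528 with the replicate number as a block). None of these 4 passed with either other scaling.

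At day 7 of the macrophage course 4 of 42 were higher and 5 lower, or 21.4%, beside 39.9% of all genes (27.4% higher, 12.5% lower). Gins1 was at 31.6, 31.6 and 35.96 TPM in control and 18.2, 17.3 and 16.9 TPM in knockout libraries (-0.88 ± 0.10). Pole2 was at 18.5, 17.4 and 19.5 TPM against 11.2, 9.86 and 9.56 TPM (-0.80 ± 0.14), and Gmnn at 101, 105 and 117 TPM against 76.9, 74.2 and 81.3 TPM (-0.47 ± 0.12). Libraries did not overlap for any of the 9 genes. Cdt1 (-0.37) and Pold2 (-0.46) completed those that fell. Pole rose from 13.5, 14.6 and 14.6 TPM to 20.1, 19.8 and 20.6 TPM (0.48 ± 0.11), the loader subunit Rfc2 from 78.1, 84.0 and 92.4 TPM to 111, 113 and 112 TPM (0.40 ± 0.11), Pola2 by 0.32 ± 0.09 and Orc1 by 0.48 ± 0.18. The calls of Pola2 and Orc1 ended with either other scaling, that of Rfc2 with the abundant transcripts left out, that of Orc1 without any of 4 single libraries, and that of Pold2 without knockout library 3 (adjusted p 0.0604). Median-of-ratios scaling moved the median of all genes from 0.117 to -0.0185 and the split to 2 up and 21 down, and leaving out abundant transcripts gave 1 up and 17 down, so the number of genes that differ at this stage depends on the scaling.

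In granulocyte cultures at day 5, 2 of 42 were higher and 9 lower in the knockout, or 26.2%, beside 32% of all genes (9.2% higher, 22.8% lower). Gins1 was at 33.5, 31.4 and 31.0 TPM in control and 13.1, 11.4 and 12.1 TPM in knockout libraries (-1.32 ± 0.13, adjusted p 1.89e-07), the largest fall between genotypes among the 42 at any stage. Pole2 went from 21.5, 17.7 and 18.1 TPM to 11.4, 10.2 and 11.4 TPM (-0.74 ± 0.13), and Cdt1 from 52.3, 38.9 and 39.1 TPM to 27.6, 28.6 and 27.7 TPM (-0.60 ± 0.13). All libraries of the genotypes were apart for these genes. Mcm10 (-0.55), Cdc45 (-0.52), Gmnn (-0.51), Pold2 (-0.42), Rrm2 (-0.39) and Slbp (-0.26) also fell, while Pole rose by 0.49 ± 0.14 and Rfc2 by 0.36 ± 0.12. Without control library 1, the one low in S100a8 and S100a9, 7 genes passed, and Cdc45, Rfc2, Rrm2 and Slbp no longer did. Neither Rrm2 nor Slbp passed with either other scaling, and Pole missed the threshold without control library 2 or 3 (adjusted p 0.0505 and 0.051). The split was 3 up and 7 down with median-of-ratios scaling.

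In granulocyte cultures at day 7, 4 of 42 were higher and 6 lower, or 23.8%, beside 44.1% of all genes (32.1% higher, 12% lower). Gins1 was at 20.3, 18.0 and 22.1 TPM in control and 11.3, 8.62 and 7.68 TPM in knockout libraries (-1.06 ± 0.13), and Pole2 at 11.2, 12.1 and 13.1 TPM against 8.06, 6.69 and 7.19 TPM (-0.66 ± 0.13). Rfc2 rose from 76.9, 75.7 and 86.8 TPM to 112, 137 and 143.5 TPM (0.70 ± 0.12, adjusted p 0.000161), Pola2 from 16.0, 14.8 and 19.6 TPM to 24.4, 23.6 and 24.9 TPM (0.52 ± 0.10). The genotypes were apart in these genes. Pole rose by 0.51 ± 0.14 and Ung by 0.48 ± 0.17, whereas Rrm2 (-0.41), Gmnn (-0.41), Mcm10 (-0.37) and Cdt1 (-0.37, with overlapping libraries) fell. Without knockout library 3, 6 genes passed, 4 higher and 2 lower, without knockout library 1, which stood apart, 13 passed, 3 higher and 10 lower, and with median-of-ratios scaling the split was 3 up and 14 down. Ung did not pass with either other scaling, and the calls of Cdt1, Rrm2, Mcm10 and Ung each ended without one of at least 3 single libraries.

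Cell-type markers also differed between genotypes at days 5 and 7. In the macrophage course at day 5, 7 of 10 macrophage markers were lower and 1 higher in the knockout (summed level 804.6 to 1027 TPM in control, 393.4 to 465.9 TPM in knockout libraries), and at day 7 progenitor markers were 5 of 8 higher (24.2 to 28.5 against 54.7 to 61 TPM). Megakaryocyte markers at day 7 of that course were summed at 418.3 to 442.3 TPM in control and 1821 to 2263 TPM in knockout libraries, with 2 of 8 higher and 1 lower. Summed macrophage markers overlapped between genotypes at day 7 of the macrophage course, at 1876 to 2737 TPM in control and 2193 to 2475 TPM in knockout libraries. In the granulocyte course, progenitor markers were 6 of 8 higher at day 5 (64.5 to 72.2 against 144.2 to 180.2 TPM) and 7 of 8 at day 7 (32.7 to 47.6 against 109 to 146.3 TPM), and megakaryocyte markers 6 of 8 higher at day 7 (301.9 to 504.4 against 1240 to 1694 TPM). Macrophage markers were lower for 8 of 10 on both days of that course (726.5 to 1006 against 239.3 to 402.3 TPM, then 1724 to 2455 against 997.8 to 1186 TPM), with 2 higher at day 7. Granulocyte markers in the granulocyte course were summed at 60320 to 158800 against 185000 to 226800 TPM at day 5. S100a8 and S100a9 made up most of these sums, at 54930 to 144300 against 176600 to 216100 TPM. The summed granulocyte markers overlapped at day 7, at 119000 to 167300 against 150000 to 170500 TPM. Of these, S100a8 and S100a9 held 111300 to 154800 and 144800 to 163400 TPM. The sums therefore say little about the other granulocyte markers. At day 7 of that course eosinophil markers were summed at 460.2 to 553.6 against 147.5 to 245.3 TPM. Mast cell and basophil markers there were at 1527 to 2014 against 1860 to 6006 TPM. No marker of the lists named here was at 0 in all libraries of a group, and their part in the replication gene results was not tested.

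Across the 6 stages, a few genes kept 1 direction while the rest followed the stage. Gins1 and Cdt1 were lower in the knockout at 6 of 6 stages, also under both other scalings but with calls at day 3 and, for Cdt1, at day 0 and granulocyte day 7 that single libraries decide, beside 1.76% of the 11826 genes tested in both courses that were lower at all 6. Pole2 and Pold2 were lower at 4 stages, Gmnn lower at 4 and higher at day 3, Pole higher at 5, Rfc2 at 4 and Pola2 at 3. Of the 42 genes, 17 had a call at 1 stage, a rise, and in none of the other 5. That pattern depends on the scaling. With median-of-ratios scaling Pcna, Lig1, Rrm1 and Uhrf1 were also lower at 2 stages, and Mcm5 and Chaf1a at 1. Pold1 was then lower at 1 stage and higher at 0, and Rfc5 was higher at 2. No share of all genes was computed for the patterns short of 6 stages.

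Each gene was also set against the median of the 42 in its own library. On that scale the libraries of the genotypes were apart in the same direction at all 6 stages for 8 genes. Gins1 (mean over stages -0.922), Pole2 (-0.614), Cdt1 (-0.49), Pold2 (-0.41) and Gmnn (-0.32) were lower, 11.9% of the 42 beside 2.89% of all genes set against the same median. Orc1 (0.508), Pole (0.489) and Rfc2 (0.419) were higher, 7.14% beside 1.81%. The median used is that of the 42 genes themselves, and it rose at day 3 while the median of all genes hardly moved. The shares of the 42 and of all genes are therefore not on an equal footing. The shift of Gins1 ranged from -0.742 at day 3 to -1.142 in granulocyte cultures at day 5, and that of Pole from 0.368 at day 0 to 0.67 in granulocyte cultures at day 5. Such ratios show that genes of the group changed unequally. In GENCODE M21 on GRCm38 these genes lie apart, Gins1 at chr2:150905400-150931280, Pole2 at chr12:69201773-69228195, Cdt1 at chr8:122568015-122573554, Pold2 at chr11:5872180-5878292, Gmnn at chr13:24751845-24761923, Orc1 at chr4:108579423-108614833, and Pole and Rfc2 on the same chromosome at chr5:110286306-110337474 and chr5:134581366-134601805.

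**Figure D4:**
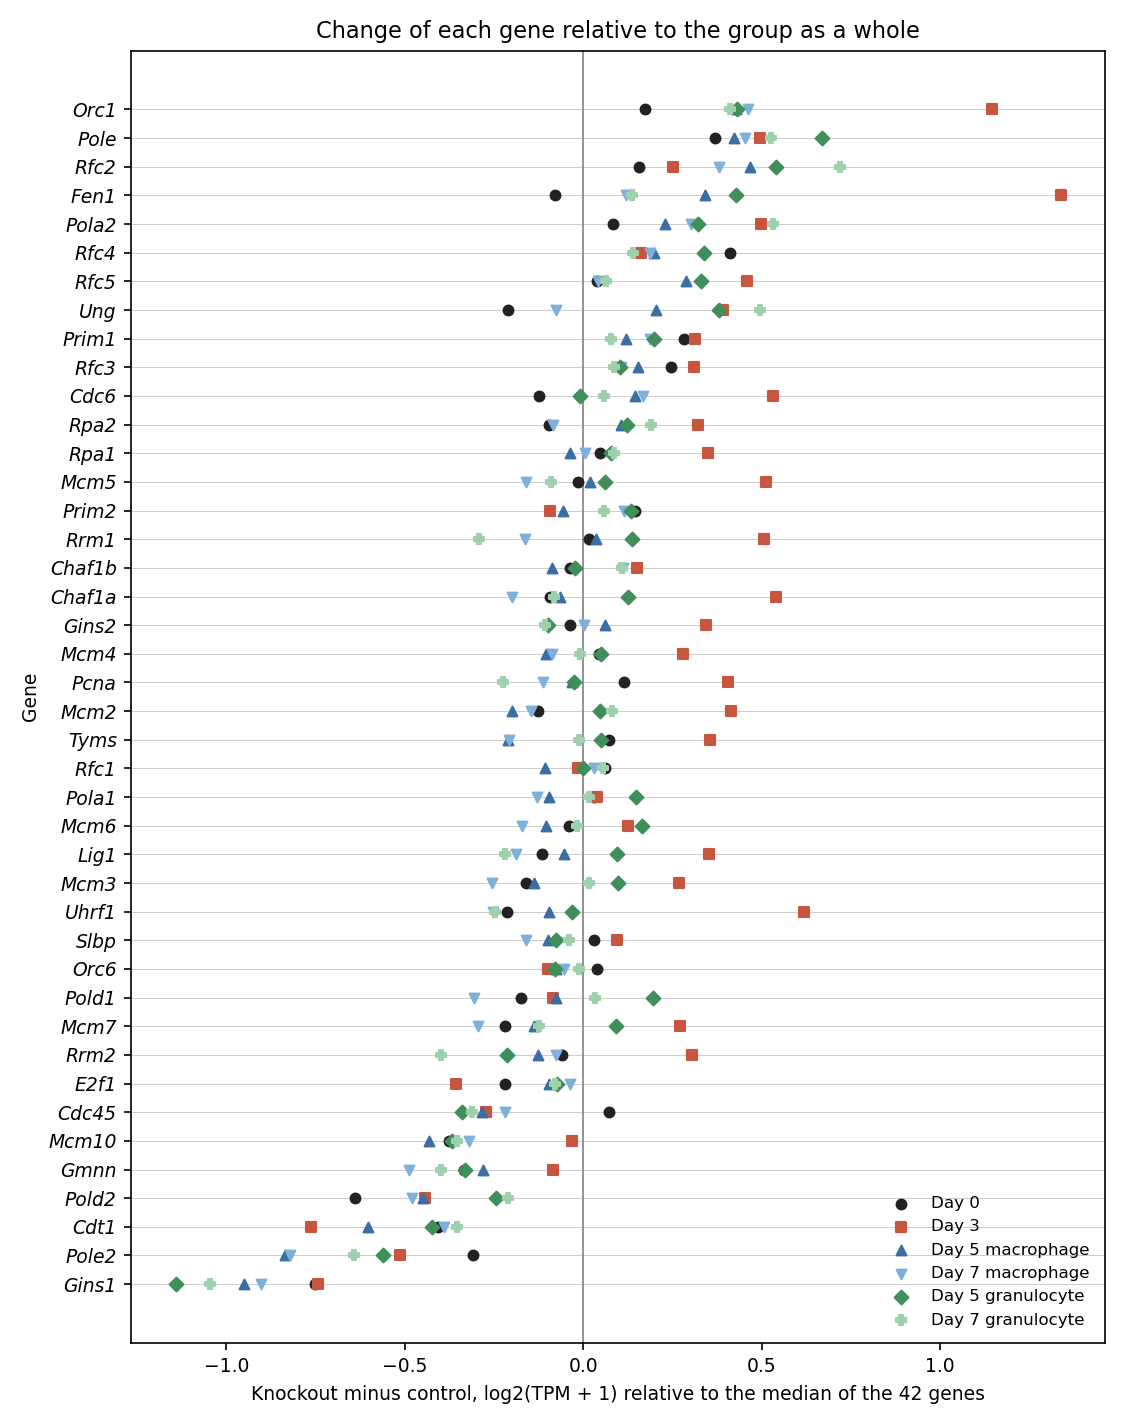
Difference between knockout and control (horizontal axis, log2(TPM + 1) after subtracting the median of the 42 genes in each library) for each gene (rows) at the 6 stages (symbols). Gins1, Pole2, Cdt1, Pold2 and Gmnn lie left of 0 and Orc1, Pole and Rfc2 right of 0 at every stage, and Fen1 and Orc1 stand far right at day 3.

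The course of the genes over time differed between genotypes. From day 0 to day 3, knockout cells had 1 gene higher and 31 lower (background 58.8%), with a median of -0.501 beside -1.06 in control. Pold2 and Mcm7 fell by 0.96 ± 0.13 and 0.88 ± 0.13 in the knockout, and Rrm2 rose by 0.57 ± 0.14, from 93.3, 104 and 112 TPM to 151, 155.6 and 152 TPM. In the test of the difference itself, the change from day 0 to day 3 was higher in the knockout for 29 of 42 genes and lower for 0 (background 32.3%, 15% higher), among them Fen1 (1.77 ± 0.27), Orc1 (1.33 ± 0.26), Uhrf1 (1.19 ± 0.23) and Cdc6 (1.01 ± 0.19). For Cdt1, Cdc45, Pole2 and E2f1 it did not pass.

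Between days 3 and 5 many of the genes fell in knockout cells, whereas in control cells some rose and 0 fell. These were not all the same genes. In control cells Pole2 stood at 15.4, 19.7 and 25.5 TPM at day 3. It stood at 21.7, 16.0 and 18.0 TPM at day 5 of the control macrophage course. The genotype difference in the change over these days was not tested. From day 3 to day 5 of the macrophage course 39 of 42 genes fell in the knockout and 0 rose (background 55.7%, 8.68% higher and 47% lower), with Pole2 going from 17.6, 19.2 and 18.7 TPM to 9.76, 8.34 and 7.37 TPM (-1.04 ± 0.14) and Mcm6 from 218, 252 and 235 TPM to 129.9, 121 and 121 TPM (-0.91 ± 0.12). All 42 genes had every day 5 library below every day 3 library, but the share of all genes with that pattern was not computed. With median-of-ratios scaling 21 of them passed, with a median of -0.253 beside -0.0262 over all genes. In the granulocyte course 20 fell and 0 rose (background 14.8%, 3.57% higher and 11.2% lower), Pole2 again the most (-0.70 ± 0.13). That count fell to 4 without knockout day 3 library 2, to 7 without day 3 library 3 and to 12, 8 and 6 without each day 5 library, and was 38 with those groups fitted alone.

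From day 5 to day 7 most of the genes fell in knockout granulocyte cultures. There 35 genes fell and 0 rose (background 41.8%), Rfc4 by 0.88 ± 0.16, Rrm2 by 0.80 ± 0.14 and the primase subunit Prim1 by 0.74 ± 0.14. In macrophage cultures 14 rose and 1, Cdc45, fell (background 66.6%, 58.1% higher and 8.56% lower), but with median-of-ratios scaling 1 rose and 19 fell, so no direction is given for the group. Pcna rose under each scaling run, from 349.97, 345 and 340.2 TPM to 655, 757 and 714 TPM (1.03 ± 0.11). Without knockout macrophage library 3 of day 7, 9 genes passed. The change from day 3 to day 7 was lower in the knockout than in control for 33 of 42 genes in the macrophage course (0 higher, background 35.2%) and for 30 in the granulocyte course (0 higher, background 33.8%), beside 13.4% and 11.4% of all genes lower. Fen1 led both, at -1.61 ± 0.27 and -1.64 ± 0.27, and these tests share the day 3 libraries with each other and with the test of the first 3 days. Cdt1 and E2f1 did not pass in either.

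A list of 59 other genes of DNA replication in the tables was counted the same way. In the knockout 5 were higher and 3 lower at day 0, and 39 higher and 4 lower at day 3, with a median of 0.439 (background 23.3% and 53.2%). They were 2 higher and 26 lower at day 5 and 10 higher and 9 lower at day 7 of the macrophage course, and 2 higher and 15 lower, then 8 higher and 10 lower, in the granulocyte course (background 43%, 39.9%, 32% and 44.1%). With median-of-ratios scaling the splits were 5 up and 7 down at day 0, 35 and 7 at day 3, 10 and 15, then 4 and 22 in the macrophage course, and 6 and 15, then 4 and 22 in the granulocyte course. With abundant transcripts left out they were 21 and 2, 44 and 4, 3 and 13, 4 and 15, 9 and 9, and 5 and 13 in the same order. At day 3 the pyrimidine synthesis enzyme Cad went from 10.5 ± 1.53 to 38.5 ± 5.48 TPM (SD, n = 3; log2 1.78 ± 0.13), the smallest replication protein A subunit Rpa3 rose by 1.19 ± 0.14 and the clamp loader factor Chtf18 by 1.19 ± 0.18. The small polymerase delta subunit Pold4 fell by 1.27 ± 0.16, the retinoblastoma gene Rb1 by 0.90 ± 0.16 and the dNTP hydrolase Samhd1 by 0.77 ± 0.11.

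Some of these genes were lower at most stages. Timeless, which guards the moving fork, was lower at all 6, with the narrowest gap at day 3 (-0.44). It was at 40.6 ± 1.64 TPM in control and 20.1 ± 1.59 TPM in knockout cells at day 0 (-0.98 ± 0.12) and 14.2 ± 1.09 against 4.95 ± 0.27 TPM at day 5 of the macrophage course (-1.35 ± 0.12). Rnaseh2b, a subunit of the enzyme that removes ribonucleotides from DNA, was lower at day 0 (-0.52), at both days of the macrophage course (-1.01 and -0.89) and at both of the granulocyte course (-0.88 and -0.90). The thymidine kinase Tk1 fell by 0.79 to 1.15 at the same 4 later stages and was higher at day 3 (0.61). Donson, a helicase assembly factor, was higher at day 0 (0.86 ± 0.11), at day 3 (1.13), at day 5 and day 7 of the macrophage course (0.45 and 0.81) and at day 7 of the granulocyte course (0.55). The ribonucleotide reductase subunit Rrm2b was higher at day 7 in both courses (0.88 ± 0.19 and 0.83 ± 0.29), from 4.02 to 8.24 TPM and from 3.56 to 7.14 TPM.

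Genes of mitosis were mostly lower in the knockout at day 7. Of 28 mitotic genes, 4 were higher at day 0, 16 higher and 1 lower at day 3, and 0 higher with 14, 21, 11 and 25 lower at days 5 and 7 of the macrophage and then of the granulocyte course. The share of all genes lower was 37.9%, 12.5%, 22.8% and 12% at these 4 stages. Of all genes 13.1% were higher at day 0, and 26.5% were higher and 26.7% lower at day 3. With median-of-ratios scaling the mitotic genes at day 3 were split 8 up and 3 down, with a median of 0.194. With abundant transcripts left out the mitotic genes were split 18 up and 1 down at day 3. At day 7 their median was -0.463 in macrophage and -0.555 in granulocyte cultures, beside -0.0794 and -0.027 for the 42 genes and 0.117 and 0.165 for all genes. With median-of-ratios scaling 26 and 27 of the 28 were lower at day 7, beside 21 and 14 of the 42 replication genes, but 3 and 6 of the 28 at day 5, so the calls at day 5 rest on the scaling. Their summed level at day 7 was 1932 to 2006 TPM in control and 1390 to 1520 TPM in knockout macrophages, and 1329 to 1484 against 860.1 to 1150 TPM in granulocyte cultures. No difference between these lists was tested.

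**Figure D5:**
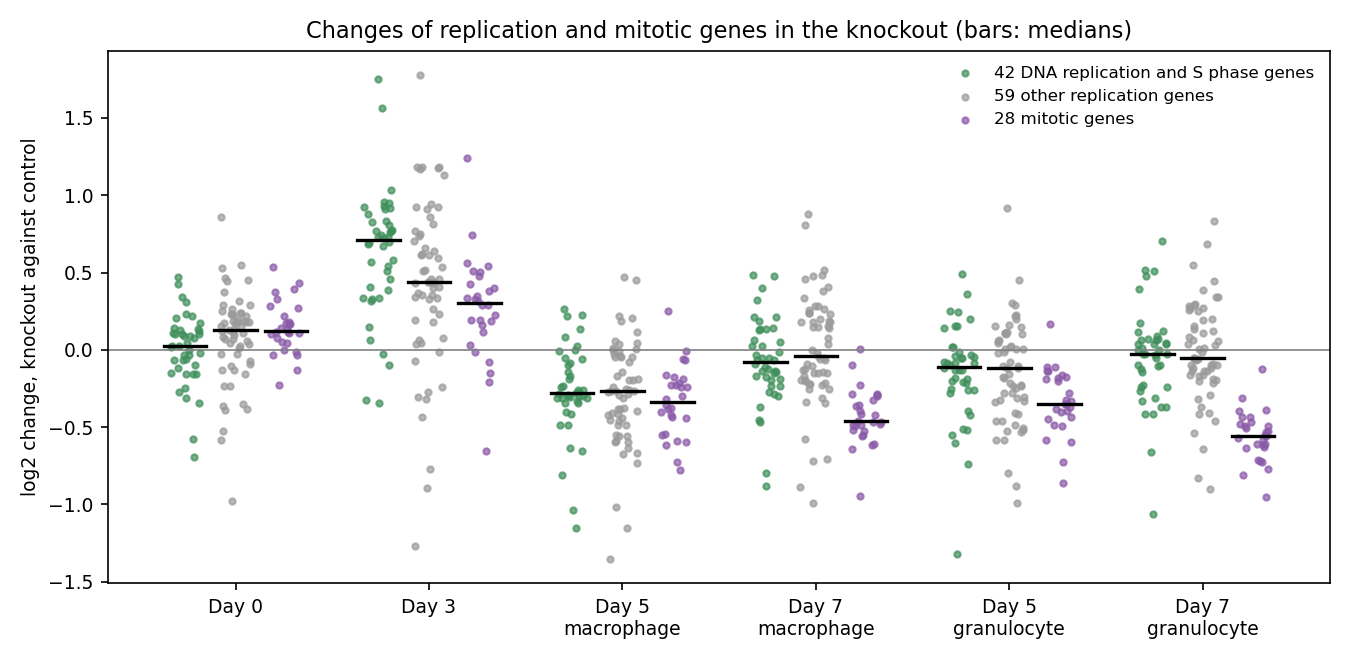
log2 change in the knockout (vertical axis) of each gene (points) of the 42 DNA replication and S phase genes, 59 other replication genes and 28 mitotic genes at the 6 stages, with medians as bars. The values are from TPM as deposited. At day 3 the medians are 0.71, 0.439 and 0.302, and at day 7 the mitotic genes lie lowest, at -0.463 and -0.555.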

How the data were processed

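RNA-seq of total RNA (KAPA stranded kit, per the labels' protocols) was deposited by the authors as TPM per gene in 2 tables, 1 per course, whose 12 day 0 and day 3 columns were equal and used once. Per the submitters' processing notes the build was mm10, DESeq2 1.38.3 was among the tools, and so was RSEM, with no version. The aligner, the annotation and the strand setting of the counting are not given in the sources used here. TPM keeps no depth, so the depth is unknown and values carry no counting interval. TPM is also a share of the library, so a rise of abundant transcripts lowers the rest.

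The 42 genes and all lists were chosen with earlier results of these data known. Groups came from the labels. Values were tested as log2(TPM + 1), a pseudocount of 1 TPM that understates the change of low genes, with limma 3.58.1 in R 4.3.3 (moderated variance with trend, 1 coefficient per group), after a filter of at least 1 TPM in at least 3 libraries. The fits held 24 libraries per course (11953 and 11905 genes, day 0 and day 3 comparisons from the macrophage course) or the 12 day 7 libraries (11269 genes), and p-values were adjusted over all genes by Benjamini-Hochberg, with a threshold of 0.05. The 22 comparisons were 6 between genotypes, 10 between days, 2 between courses and 4 differences of differences. A ± after a log2 change is a standard error. The code was tested on simulated data.

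Values in every library were planned for the 2 largest changes per role among called genes with libraries apart, and for members against the majority. This was done for the main genes of the genotype comparisons, and fewer were given elsewhere, a choice made after the values were seen. Among other replication genes the 3 largest rises and falls with at least 5 TPM were eligible. Alternatives covered other pseudocounts and filters, median-of-ratios scaling over genes at 1 TPM in every library, TPM rescaled without Rpph1, Rmrp, histone genes, S100a8 and S100a9, the compared groups fitted alone, all 36 libraries fitted together, a replicate block and each library left out.

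The labels number the libraries of a group 1 to 3. Libraries with the same number deviated together (every r over 0.1) between genotypes at day 5 of the macrophage course (0.3, 0.182 and 0.267), within the knockout after day 3 in both courses and between the courses at day 7, but not in the other comparisons. Promoter sequences came from RefSeq (GRCm38.p6) and gene positions from GENCODE M21.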

Additional observations from a re-analysis of the deposited data

Results flagged for a closer look

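The change from day 0 to day 3 differed between the genotypes for 29 of the 42 genes, all with the higher change in the knockout, by the test of the difference of the changes. The change from day 3 to day 7 differed for 33 genes in the macrophage course and for 30 genes in the granulocyte course, all with the lower change in the knockout. These 3 results share the day 3 libraries, and leaving out one library at a time gave 24 to 34, 30 to 37 and 25 to 33 genes.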

How the results depend on the processing

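Of 572 values for single genes, a few of which had not passed, 390 neither lost a call nor turned sign in any alternative run. The other 182 lost a call or turned sign in at least 1 run. A call was gained 7 times over these runs, which did not count as a change. Median-of-ratios scaling changed the number of the 42 genes called between genotypes to 8 at day 0, 23 at day 7 of the macrophage course and 17 at day 7 of the granulocyte course, and the number called between days to 8 for control macrophage cultures from day 5 to 7, 21 for the knockout from day 3 to macrophage day 5 and 10 from day 3 to granulocyte day 5. It gave 24 between control courses at day 7. Leaving out the abundant transcripts gave 12 at day 0, 11 at macrophage day 5, 18 at macrophage day 7, 8 for control macrophage cultures from day 5 to 7 and 1 for the genotype difference between courses. Fitting the compared groups alone gave 12 for control from day 3 to macrophage day 5, 14 to granulocyte day 5, 26 for the knockout from macrophage day 5 to 7 and 38 from day 3 to granulocyte day 5. The cause was not tested. For the knockout from macrophage day 5 to 7 the sign turned with median-of-ratios scaling for Chaf1b (-0.0292), Lig1 (-0.1207), Mcm10 (-0.0879), Mcm6 (-0.1391), Pola1 (-0.1485), Pola2 (-0.1558) and Prim2 (-0.0675), and with abundant transcripts left out for Chaf1b (-0.0348), Gmnn (-0.0047), Lig1 (-0.1271), Mcm10 (-0.0944), Mcm6 (-0.1448), Pola1 (-0.1555), Pola2 (-0.1625) and Prim2 (-0.0734). Genes that did not pass also turned, E2f1 at day 3 (-0.0371) and, in control from day 0 to 3, Cdc45 (0.1154) and Rrm2 (0) with median-of-ratios scaling, and Pold2 (0.075) and Pole2 (9e-04) at day 3 with abundant transcripts left out. Leaving out one library at a time, the number called between genotypes ranged from 3 to 6 at day 0, 33 to 38 at day 3, 11 to 19 and 7 to 10 at macrophage days 5 and 7, and 7 to 9 and 6 to 13 at granulocyte days 5 and 7. It ranged from 9 to 12 for the knockout from macrophage day 5 to 7 and from 4 to 19 from day 3 to granulocyte day 5. Of the genes that did not pass at day 3, Cdc45 ranged from -0.0164 to 0.2502, Pold2 from -0.0799 to 0.0543 with 0.0085 without knockout library 1, Pole2 from -0.2683 to 0.0783 and E2f1 from -0.0533 to 0.1339, and in control from day 0 to 3 Cdc45 ranged from -0.146 to 0.1206 and Rrm2 from -0.2727 to 0.0413. With the replicate number as a block, 5, 38, 20, 9, 11 and 11 genes were called at day 0, day 3, macrophage days 5 and 7 and granulocyte days 5 and 7, no count of the 22 comparisons moved by over 1.5 times, and the calls of Prim2 at macrophage day 5 (adjusted p 0.0528) and of Rfc1 in the granulocyte difference of changes (adjusted p 0.051) were lost. TPM gives no depth, so what depth limits could not be measured.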
